A study of Mus musculus with 11 samples.

Results

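The synaptic vesicle release machinery was followed as 37 mouse genes in RNA from developing retina. They were taken by symbol as a list of proteins that hold, dock, prime, fuse and retrieve synaptic vesicles. All 37 were matched to 1 Ensembl gene each among the 47069 genes counted, and all 37 were among the 18188 genes that passed the filter on low counts. Their counts per library ran from 29 for Syt2 to 16077 for Syt1.

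The libraries came from C57BL/6 mice, with 2 from wild type and 3 from Kir2.1 at postnatal day 4 (P4) and 3 from each genotype at postnatal day 8 (P8). In the Kir2.1 mice a transgene of human Kir2.1 joined to eYFP, driven by the general CAG promoter behind a floxed STOP cassette, was switched on by Brn3b-cre, a Cre line for retinal ganglion cells. Kir2.1 is an inwardly rectifying potassium channel, used as a tool to hold neurons near their resting potential and so quiet them. The genotype field calls the controls wild type, whereas the preparation text names them Brn3b-cre mice, so the controls may carry Cre too, and neither places the floxed transgene in them. For the older groups the labels conflict, with P8 in the age field, followed here, and P11 in the preparation text. The source field names retinal ganglion cells, but the text describes dissociation of isolated retinas with no sorting step. Sex is not stated, and nothing says whether libraries came from separate animals or pooled retinas, so the p-values measure the spread between these samples, which may be technical. The series title places the study in the question of how retinal activity around birth shapes the wiring of visual axons.

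Between 9362215 and 12478838 counts per library fell on genes. Markers of rods, bipolar cells, amacrine cells, ganglion cells and Mueller glia were all present in every group, so the libraries hold RNA of the whole retina rather than of ganglion cells alone. Several libraries stood apart from others of their group, and results are given with and without them. The 12 rod markers, all with counts in every library, summed to 921, 3720 and 8230 CPM (TMM-normalised counts scaled to the same total over the filtered genes in each library, the unit of all levels below) in wild-type P8 replicates 1 to 3, against 7820, 7800 and 8010 CPM in Kir2.1 P8. Wild-type P4 replicate 2 had 1440 CPM of rod markers and 974 CPM of the 11 markers of dividing cells, where replicate 1 had 285 and 2600 CPM. Kir2.1 P8 replicate 2 had counts on 31325 genes, and the other 10 libraries had counts on 22609 to 24591. Chat and Slc18a3 make and load acetylcholine in starburst amacrine cells. Within their groups both were lowest in Kir2.1 P4 replicate 2, wild-type P8 replicate 3 and Kir2.1 P8 replicate 2, as described below. These are RNA levels of whole retina, in which fewer cells of a type and less RNA per cell cannot be told apart.

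A synaptic vesicle is filled with transmitter, docked at the active zone, primed, and fused when calcium enters the terminal. The SNARE proteins Snap25, the syntaxins and the VAMPs zip together to drive fusion, complexins clamp and assist them, and synaptotagmins sense calcium. Rab3 proteins with RIM, Munc13 and ELKS proteins tether and prime vesicles, Nsf and the SNAP proteins take spent SNARE complexes apart, and dynamin, amphiphysin, synaptojanin and AP180 retrieve the membrane. Retina uses distinct versions of this machinery side by side. Amacrine cells release at conventional synapses with Stx1a and Cplx1 or Cplx2, while photoreceptors and bipolar cells release at ribbon synapses with Stx3, Cplx3 and Cplx4. In the first weeks after birth these synapses are still being built.

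The promoters of a few of these genes are shown first, because the syntaxin pair moved in opposite directions with age and Sv2b and Rims1 were among the 5 members with the widest range over the P8 libraries (3.56-fold and 6.69-fold). RefSeq promoter windows on GRCm38.p6, each from 250 bases before to 50 after a transcript start, were found for 29 of the 37 genes. Each line below gives 250 bases, from 230 before to 20 after the start, 5′ to 3′ on the gene's strand, with the Sp1 box in capitals where it occurs. The Stx1a stretch is chr5:135023252-135023501 on the plus strand and that of Stx3 is chr19:11819384-11819633 on the minus strand. The Rims1 stretch is chr1:22806139-22806388 on the minus strand, and the Sv2b stretch, the outermost of its 4 windows, is chr7:75309243-75309492 on the minus strand.
Stx1a: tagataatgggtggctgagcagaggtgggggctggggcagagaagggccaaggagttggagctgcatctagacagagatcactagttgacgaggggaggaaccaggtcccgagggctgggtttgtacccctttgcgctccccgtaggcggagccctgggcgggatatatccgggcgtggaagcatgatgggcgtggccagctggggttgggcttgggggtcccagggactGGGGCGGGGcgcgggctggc
Stx3: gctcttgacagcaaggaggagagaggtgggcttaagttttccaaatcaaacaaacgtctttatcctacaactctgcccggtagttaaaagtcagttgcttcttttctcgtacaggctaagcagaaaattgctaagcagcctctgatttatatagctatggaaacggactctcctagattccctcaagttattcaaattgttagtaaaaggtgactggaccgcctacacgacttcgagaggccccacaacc
Rims1: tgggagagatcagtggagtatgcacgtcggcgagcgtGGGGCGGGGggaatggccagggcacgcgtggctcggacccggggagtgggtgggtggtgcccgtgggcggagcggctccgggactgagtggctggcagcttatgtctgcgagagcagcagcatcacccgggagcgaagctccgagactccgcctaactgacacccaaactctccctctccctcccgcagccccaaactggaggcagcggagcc
Sv2b: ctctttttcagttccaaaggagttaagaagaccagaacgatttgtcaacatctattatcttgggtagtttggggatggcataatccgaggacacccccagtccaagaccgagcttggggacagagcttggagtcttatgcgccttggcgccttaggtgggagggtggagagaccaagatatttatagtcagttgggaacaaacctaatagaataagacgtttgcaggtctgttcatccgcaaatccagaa

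The Sp1 box, GGGGCGGGG searched on both strands, began at base 1 of the Stx1a transcript and 193 bases before the Rims1 start, and the Stx3 and Sv2b stretches held none. It was in a window of 10 of 29 members (34.5%: Dnm1, Rab3a, Rab3b, Rims1, Sncb, Stx1a, Sv2a, Synj1, Syp and Unc13a) against 12.9% of 27025 genes with windows of the same length. GC content had a median of 61.2% over the members' windows and 52.7% over all windows. The cyclic AMP response element TGACGTCA was in 1 member (3.4%, Syn1) and 2.03% of all genes. A fixed core string of the RE1 element of the neuronal repressor REST was in none of the 29 and in 0.041% of all genes. Only exact matches to that string were counted, so sites with a mismatch were missed and absence of the element is not shown. The shorter TCAGCACC, which overlaps that element, was in 2 members (6.9%, Syn1 and Unc13a) and 1.85% of all genes. These matches describe letters, not binding.

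**Figure D1:**
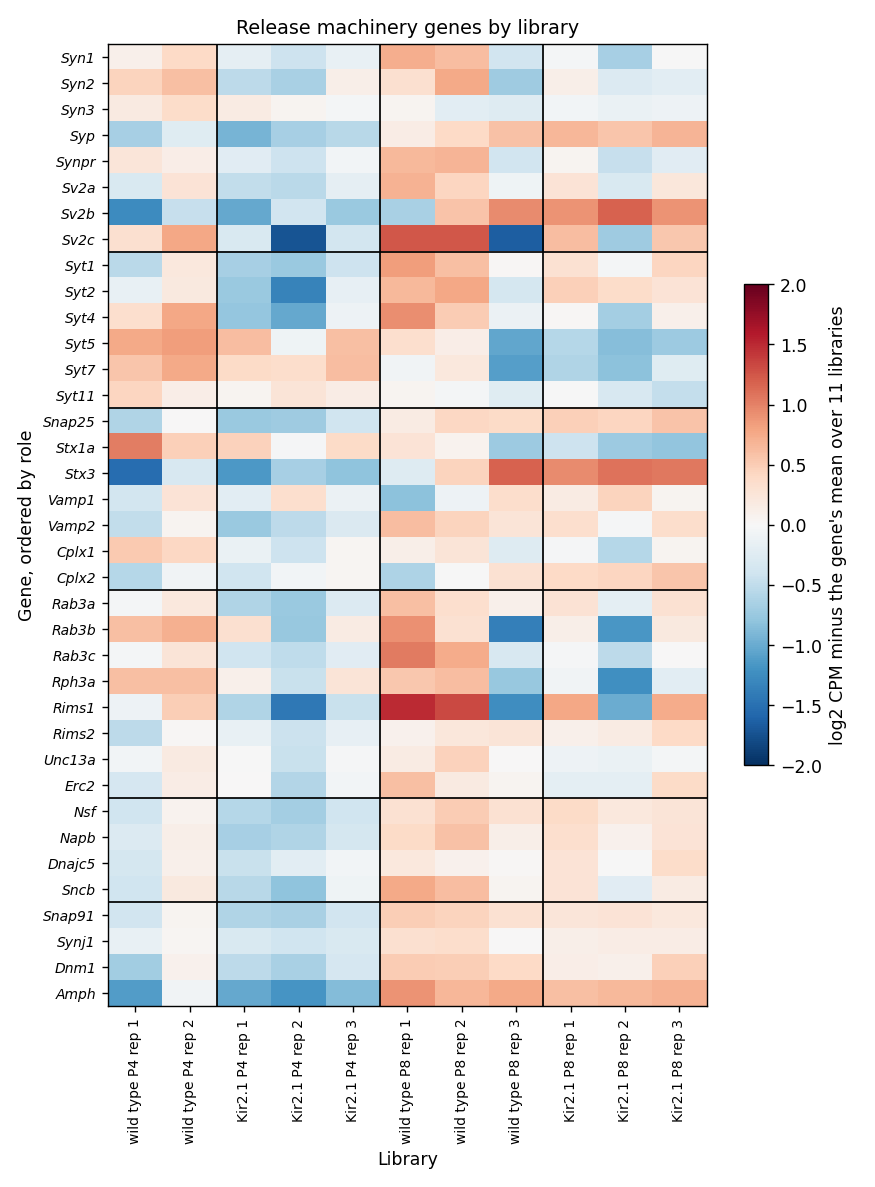
Level of each of the 37 genes (rows, grouped by role) in each of the 11 libraries (columns), as log2 CPM minus that gene's mean over the libraries; red is above and blue below that mean, on a scale from -2 to 2. Most P8 columns are redder than the P4 columns, Syt5, Syt7 and Stx1a run the other way, and Rims1, Sv2c, Rab3b and Rph3a are blue in wild-type P8 replicate 3.

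Per kilobase of exon, which lets genes be set beside each other, Syt1, the calcium sensor of fast release, had the top level in all 4 groups. It stood at 91.3 ± 33.1 CPM per kilobase in wild-type P4 (SD, n = 2) and 65.3 ± 7.92 in Kir2.1 P4 (SD, n = 3). At P8 it stood at 142 ± 38.8 in wild type and 118 ± 18.7 in Kir2.1 (SD, n = 3 each). In wild-type P8 the next 5 genes were Rab3a, Vamp2, Snap25, Sncb and Syp, between 105 and 94.5 CPM per kilobase, and their SDs of 9.27 to 23.3 were as large as the gaps between them. In Kir2.1 P8, Syp at 112 ± 5.04 and Snap25 at 111 ± 5.58 came next after Syt1. At the bottom of all 4 groups stood Syt2, the sensor of some fast-firing neurons, at 0.461 to 0.995 CPM per kilobase, with Vamp1, Syn2 and Syn3 also under 4 CPM per kilobase.

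From P4 to P8 in the Kir2.1 retinas, 14 release genes rose, among them Stx3, Sv2b, Amph and Syp, and 3 fell, Syt5, Syt7 and Stx1a. Of the 37 genes, 17 passed an adjusted p of 0.05 (edgeR's quasi-likelihood test, Benjamini-Hochberg over all genes tested), 14 higher and 3 lower. Over all 18188 genes, 16.7% passed, 7.93% higher and 8.73% lower. The members' median log2 fold change was 0.47, and 30 of 37 were above 0, where the median of all genes tested was 0.01. In wild type the same comparison called 3 members, all higher, against 4.39% of all genes, 0.803% higher and 3.58% lower. The wild-type median over the members was 0.28, with 26 of 37 above 0 and a median of 0.03 over all genes. The difference between these 2 age changes was called for no gene at all, as given below, so the larger count in Kir2.1 is not shown to be a difference between the genotypes. Without Kir2.1 P4 replicate 2, wild-type P8 replicate 3 and Kir2.1 P8 replicate 2 together, 17 members passed in Kir2.1 and 5 in wild type, beside 12.9% and 4.02% of all genes tested there. Leaving out 1 library at a time gave 9 to 21 members in Kir2.1 (9 without P4 replicate 1 and 10 without P8 replicate 3 of that genotype, beside 9.76% and 10.2% of all genes). In wild type it gave 1 to 10 members, with 1 without P4 replicate 1, 10 without P4 replicate 2 and 5 without P8 replicate 1 of that genotype, beside 0.823%, 6.76% and 7.19% of all genes. With no filter on low counts 27 members passed in Kir2.1 and 15 in wild type, beside 10% and 5.63% of the 36534 genes then tested. The DESeq2 test called 21 members in Kir2.1 and 10 in wild type, among 3590 and 1337 genes called in all.

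**Figure D2:**
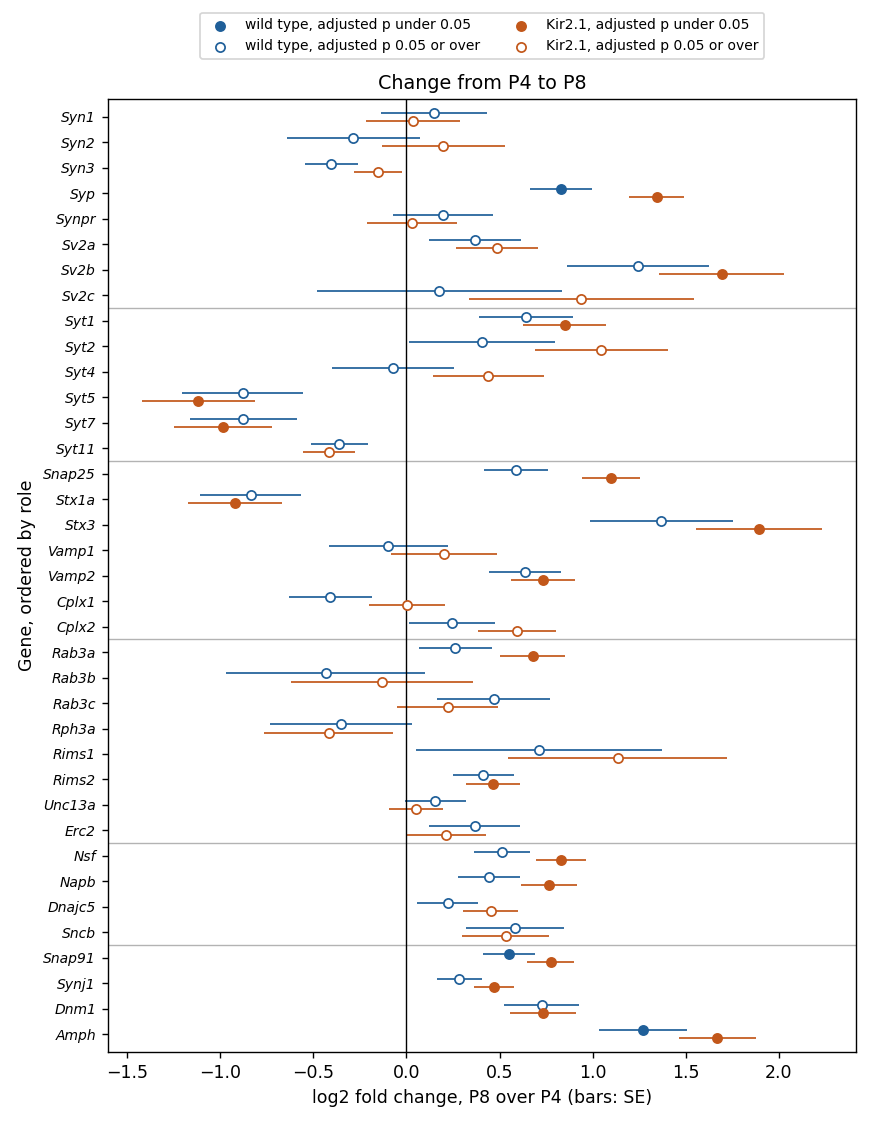
Fitted log2 fold change from P4 to P8 for each of the 37 genes in wild type (blue) and Kir2.1 (orange), with bars of 1 SE; filled points passed an adjusted p of 0.05. Amph, Syp, Stx3 and Sv2b lie furthest to the right, and Syt5, Syt7 and Stx1a to the left in both genotypes.

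Among the vesicle proteins, 2 of 8 passed in Kir2.1, both higher, and 1 in wild type, beside 16.7% and 4.39% of all genes. Syp (synaptophysin; ENSMUSG00000031144; chromosome X, 7638471 to 7653256, plus strand) is an abundant membrane protein of the vesicle that binds Vamp2. Its level in wild type was 236 and 319 CPM at P4 and 417, 496 and 565 CPM at P8. In Kir2.1 it was 198, 238 and 255 CPM at P4 and 595, 554 and 602 CPM at P8. Every P8 library lay above every P4 library, with log2 fold changes of 0.83 ± 0.17 (SE, adjusted p = 0.014) in wild type and 1.34 ± 0.15 (SE, adjusted p = 1.83e-04) in Kir2.1. Without wild-type P4 replicate 1 the wild-type change was 0.62 and not called (adjusted p = 0.303). Of the exons, 875 of the 5211 bases are shared with the antisense gene Gm14703. The strand setting of the counting is not given in the sources used here, so reads of the 2 genes cannot be told apart there.

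Sv2b (ENSMUSG00000053025; chromosome 7, 75114894 to 75309262, minus strand), a transporter-like vesicle protein found at ribbon terminals, stood at 83.9, 131 and 102 CPM in Kir2.1 P4 and 318, 388 and 319 CPM in Kir2.1 P8. Those groups did not overlap, and the log2 fold change was 1.69 ± 0.34 (SE, adjusted p = 0.00513). In wild type it was at 71.8 and 124 CPM at P4 and 109, 255 and 329 CPM at P8, with a log2 fold change of 1.24 ± 0.38 (SE, adjusted p = 0.0928). Wild-type P8 replicate 1 was below one of the P4 libraries, so the wild-type groups overlapped. Its paralogue Sv2a, present in most neurons, had log2 fold changes of 0.37 ± 0.25 (SE, adjusted p = 0.475) and 0.49 ± 0.22 (SE, adjusted p = 0.165) in wild type and Kir2.1, and Sv2c, restricted to fewer cells, 0.18 ± 0.66 (SE, adjusted p = 0.923) and 0.94 ± 0.60 (SE, adjusted p = 0.338). Per kilobase, the log2 ratio of Sv2b to Sv2a was -2.20 ± 0.14 in wild-type P4 (SD, n = 2), -1.67 ± 0.41 in Kir2.1 P4, -1.41 ± 1.21 in wild-type P8 and -0.43 ± 0.49 in Kir2.1 P8 (SD, n = 3 each). Kir2.1 P8 replicate 2 was the 1 library in which Sv2b exceeded Sv2a, with a ratio of 1.10.

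The synapsins, which tether vesicles to each other and to actin, did not pass in either genotype. Syn1 had log2 fold changes of 0.15 ± 0.28 (SE, adjusted p = 0.831) and 0.03 ± 0.25 (SE, adjusted p = 0.953), Syn2 of -0.29 ± 0.36 (SE, adjusted p = 0.725) and 0.20 ± 0.33 (SE, adjusted p = 0.751), and Syn3 of -0.40 ± 0.14 (SE, adjusted p = 0.14) and -0.15 ± 0.13 (SE, adjusted p = 0.478), wild type first. Syn1 was the main synapsin throughout, at 16.4 to 28.4 times the level of Syn2 per kilobase across the 11 libraries and 8.44 to 21.9 times that of Syn3. Of the Syn3 exon bases, 1733 of 12282 are shared with Timp3 on the opposite strand, where reads of the genes cannot be told apart. Synpr, a synaptophysin relative, had 0.20 ± 0.27 (SE, adjusted p = 0.751) and 0.03 ± 0.24 (SE, adjusted p = 0.955).

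Synaptotagmins split by direction. Syt1 was at 519, 496 and 619.7 CPM in Kir2.1 P4 and 1025, 807 and 1110 CPM in Kir2.1 P8, and it rose by a log2 fold change of 0.85 ± 0.22 (SE, adjusted p = 0.0234). In wild type Syt1 was at 566 and 956 CPM and then 1473, 1254 and 836 CPM. Those ages overlapped, at 0.64 ± 0.25 (SE, adjusted p = 0.186). Syt7 and Syt5 fell. Syt7, a slow high-affinity sensor of vesicle replenishment and asynchronous release, was at 220.1, 216 and 259 CPM in Kir2.1 P4 and 111, 96.3 and 143 CPM in Kir2.1 P8. The groups did not overlap, and the log2 fold change was -0.99 ± 0.26 (SE, adjusted p = 0.0239). In wild type Syt7 was at 248 and 286 CPM and then 161, 196 and 79.2 CPM, also without overlap, at -0.88 ± 0.29 (SE, adjusted p = 0.111).

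Syt5, a relative found on dense-core vesicles, was at 30.8, 19.0 and 30.4 CPM in Kir2.1 P4 and 13.5, 11.2 and 12.2 CPM in Kir2.1 P8, a log2 fold change of -1.12 ± 0.30 (SE, adjusted p = 0.0256). Its wild-type levels were 34.2 and 36.0 CPM and 25.4, 22.1 and 9.76 CPM, at -0.88 ± 0.32 (SE, adjusted p = 0.157). All P8 libraries of each genotype were below its P4 libraries, and the wild-type replicate 3 at P8 was the lowest of the 11. Syt4, Syt2 and Syt11 did not pass in either genotype, with Kir2.1 log2 fold changes of 0.44 ± 0.30 (SE, adjusted p = 0.367), 1.05 ± 0.36 (SE, adjusted p = 0.0666) and -0.42 ± 0.14 (SE, adjusted p = 0.0615). Syt1 exceeded Syt2 per kilobase by 103 to 204 times across libraries. The Kir2.1 calls of these genes were lost when 1 Kir2.1 library was left out. For Syt1 these were P4 replicates 1 and 2 and P8 replicates 1 and 3 (log2 fold changes of 0.75 to 0.81, adjusted p from 0.0662 to 0.097). For Syt5 they were P4 replicates 1 and 3 and each P8 replicate (-1.19 to -1.01, adjusted p from 0.0575 to 0.088), and for Syt7 P4 replicates 1 and 3 and P8 replicates 1 and 2 (-1.04 to -0.86, adjusted p from 0.0556 to 0.0929).

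The syntaxins went opposite ways. Stx3 (ENSMUSG00000041488; chromosome 19, 11775118 to 11819403, minus strand), the syntaxin of ribbon synapses, was at 105, 145 and 132 CPM in Kir2.1 P4 and 447, 493 and 479.7 CPM in Kir2.1 P8. This was the largest fitted rise among the 37 genes, at 1.89 ± 0.34 (SE, adjusted p = 0.00298) on the log2 scale. In wild type Stx3 was at 80.8 and 185 CPM at P4 and 194, 314 and 522 CPM at P8, at 1.37 ± 0.38 (SE, adjusted p = 0.069). The wild-type P8 libraries spread over a 2.69-fold range, and replicate 1 was barely above the higher P4 library.

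Stx1a (ENSMUSG00000007207; chromosome 5, 135023482 to 135051100, plus strand), the syntaxin of conventional synapses, was at 39.4, 28.2 and 37.3 CPM in Kir2.1 P4 and 21.4, 17.3 and 16.5 CPM in Kir2.1 P8, and it fell, with a log2 fold change of -0.92 ± 0.25 (SE, adjusted p = 0.0263). In wild type it was at 57.9 and 39.8 CPM and 34.7, 30.0 and 17.3 CPM, at -0.84 ± 0.27 (SE, adjusted p = 0.108). P4 and P8 did not overlap in either genotype. Per kilobase the log2 ratio of Stx3 to Stx1a was 0.25 ± 1.23 in wild-type P4 (SD, n = 2) and 0.77 ± 0.48 in Kir2.1 P4 (SD, n = 3). At P8 the wild-type ratio was 2.49 ± 1.23 and the Kir2.1 ratio 3.59 ± 0.27 (SD, n = 3 each). The ratio itself ran from 0.652 in wild-type P4 replicate 1 to 14.0 in wild-type P8 replicate 3, and wild-type P8 replicate 1, at 2.61, was close to the 2.18 and 2.41 of 2 P4 libraries. The Kir2.1 call of Stx1a was lost without P4 replicate 1 or 3 or P8 replicate 2 or 3 of that genotype, at -0.88 to -0.85 and an adjusted p of 0.0788 to 0.0976.

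Snap25, the plasma-membrane SNARE that pairs with syntaxin, was at 320.2, 326 and 406 CPM in Kir2.1 P4 and 741, 719.6 and 793 CPM in Kir2.1 P8, and it rose by 1.10 ± 0.15 (SE, adjusted p = 7.17e-04). Its wild-type levels of 354 and 539.8 CPM and 599.9, 716 and 699 CPM did not overlap either, at 0.59 ± 0.17 (SE, adjusted p = 0.0824). Vamp2, the main vesicle SNARE, rose in Kir2.1 by 0.73 ± 0.17 (SE, adjusted p = 0.0127), though not without P4 replicate 1 or P8 replicate 3 (0.60 to 0.67, adjusted p from 0.0533 to 0.075). Vamp1, its relative, was at 0.20 ± 0.29 (SE, adjusted p = 0.706). Vamp1 stayed at 0.00683 to 0.0336 of the level of Vamp2 per kilobase in all libraries. Cplx2 and Cplx1 did not pass, at 0.59 ± 0.21 (SE, adjusted p = 0.0723) and 0.00 ± 0.20 (SE, adjusted p = 0.992) in Kir2.1.

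**Figure D3:**
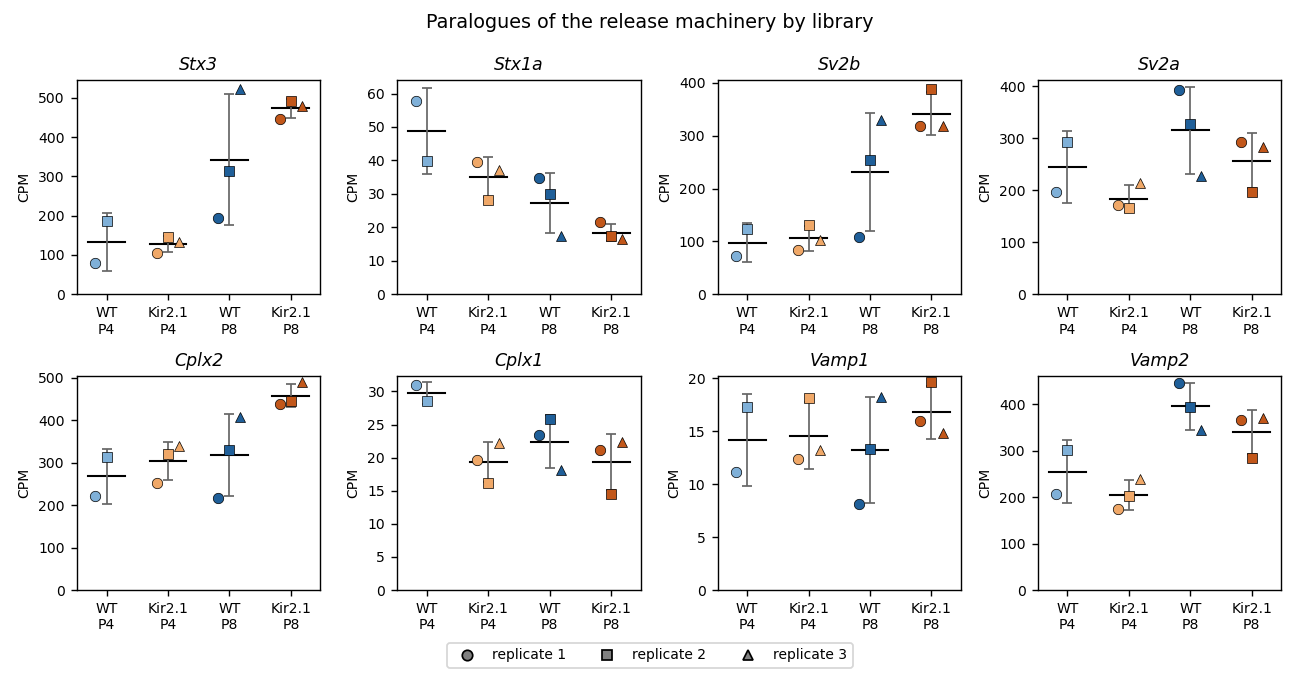
CPM of 4 paralogue pairs in each library, with the group mean (line) and SD (bar; n = 2 in wild-type P4 and 3 elsewhere), and marker shape for the replicate number. In wild-type P8 the circle is lowest and the triangle highest for Stx3, Sv2b and Cplx2, and the reverse holds for Stx1a, Sv2a and Vamp2.

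Of the Rab3 and active zone genes, 2 of 8 passed in Kir2.1, both higher, and none in wild type, beside 16.7% and 4.39% of all genes. Rab3a, an abundant Rab of vesicles, rose by 0.68 ± 0.17 (SE, adjusted p = 0.0206). Without Kir2.1 P4 replicate 1 or 2 or P8 replicate 1 or 3 it was at 0.58 to 0.62 and not called (adjusted p from 0.0766 to 0.0942). Rims2, a RIM scaffold, rose by 0.47 ± 0.15 (SE, adjusted p = 0.0477), and in wild type it was at 0.41 ± 0.16 (SE, adjusted p = 0.189). The Kir2.1 call held in 7 of the 17 alternative fits. It was lost without any 1 of the Kir2.1 libraries or wild-type P8 replicate 1 or 2 (0.37 to 0.52, adjusted p from 0.0527 to 0.179). It was also lost with the replicate number as a block. The same held without Kir2.1 P4 replicate 2, wild-type P8 replicate 3 and Kir2.1 P8 replicate 2 together (0.41, adjusted p = 0.167). Rims1, its paralogue, had a larger fitted change of 1.13 ± 0.59 (SE, adjusted p = 0.225) that did not pass, with Kir2.1 libraries at 114, 64.3 and 128 CPM at P4 and 296, 86.9 and 289 CPM at P8. Unc13a (Munc13-1, the priming factor), Erc2 (an ELKS scaffold), Rph3a (rabphilin), Rab3b and Rab3c had Kir2.1 log2 fold changes between -0.42 and 0.22 and did not pass. Rab3a exceeded Rab3b by 10.5 to 54.5 times and Rab3c by 5.44 to 9.86 times per kilobase across the libraries.

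For SNARE recycling, 2 of 4 genes passed in Kir2.1 and none in wild type, beside 16.7% and 4.39% of all genes. Nsf, the ATPase that unwinds spent SNARE complexes, rose in Kir2.1 by 0.83 ± 0.13 (SE, adjusted p = 0.00163), and Napb, the beta-SNAP that recruits it, by 0.77 ± 0.15 (SE, adjusted p = 0.00474). In wild type they were at 0.51 ± 0.15 (SE, adjusted p = 0.0802) and 0.44 ± 0.17 (SE, adjusted p = 0.169). The chaperone Dnajc5 and the synuclein Sncb were at 0.45 ± 0.15 (SE, adjusted p = 0.0552) and 0.53 ± 0.23 (SE, adjusted p = 0.146) in Kir2.1.

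All 4 endocytosis genes passed in Kir2.1, all higher, and 2 of the 4 passed in wild type, beside 16.7% and 4.39% of all genes. In wild type all 4 were fitted above 0. Amph (amphiphysin; ENSMUSG00000021314; chromosome 13, 18948205 to 19150921, plus strand), which bends membrane and recruits dynamin, was at 103 and 213 CPM in wild-type P4 and 414, 352 and 376 CPM in wild-type P8. In Kir2.1 it was at 109.5, 97.9 and 122 CPM and 337, 350.1 and 359 CPM. No P8 library came near a P4 library, and the log2 fold changes were 1.27 ± 0.24 (SE, adjusted p = 0.0087) and 1.67 ± 0.21 (SE, adjusted p = 3.45e-04), wild type first. Amph passed in both genotypes under all 17 alternatives. The 6 P8 libraries differed by 1.23-fold at most in Amph, against 2.69-fold in Stx3 and 6.69-fold in Rims1.

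Snap91 (AP180), the clathrin adaptor for vesicles, was at 156 and 211 CPM in wild-type P4 and 283, 274 and 249 CPM at P8, and in Kir2.1 at 134, 129 and 156 CPM and 239, 244 and 233 CPM. The ages did not overlap in either genotype, at 0.55 ± 0.14 (SE, adjusted p = 0.0489) in wild type and 0.78 ± 0.13 (SE, adjusted p = 0.00173) in Kir2.1. The wild-type call was at the edge of the threshold and held in 6 of 17 alternative fits. Without wild-type P4 replicate 1, or any 1 of 8 other libraries, Snap91 was at 0.35 to 0.55 and not called. It was not called with the replicate number as a block either. The same held without Kir2.1 P4 replicate 2, wild-type P8 replicate 3 and Kir2.1 P8 replicate 2 together (0.60, adjusted p = 0.0619). Dnm1 (dynamin, which cuts the vesicle neck) and Synj1 (synaptojanin, which strips the coat) rose in Kir2.1 by 0.74 ± 0.18 (SE, adjusted p = 0.0145) and 0.47 ± 0.11 (SE, adjusted p = 0.0117). In wild type they were at 0.73 ± 0.20 (SE, adjusted p = 0.0646) and 0.28 ± 0.12 (SE, adjusted p = 0.222). The Dnm1 call was lost without Kir2.1 P4 replicate 1 or 2 or P8 replicate 3 (0.61 to 0.70, adjusted p from 0.057 to 0.0677), and without Kir2.1 P4 replicate 2, wild-type P8 replicate 3 and Kir2.1 P8 replicate 2 together (0.73, adjusted p = 0.0583). Syp, Sv2b, Snap25, Stx3, Nsf, Napb, Snap91, Synj1 and Amph kept their Kir2.1 calls in all 17 alternatives.

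Cell type markers changed over the same days. The rod list rose from 285 to 1440 CPM over the 5 P4 libraries to 921 to 8230 CPM over the 6 P8 libraries. The 12 bipolar markers, 9 of which had counts in every library, went from 446 to 742 CPM to 846 to 2630 CPM. The 14 ganglion cell markers, 13 with counts in every library, went from 342 to 1680 CPM to 521 to 621 CPM, and the 11 markers of dividing cells from 974 to 2720 CPM to 123 to 167 CPM. No marker of these 4 lists was at 0 throughout a group. Their part in the age changes of the release genes was not tested.

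At P4 no release gene passed between Kir2.1 and wild type, although nearly all were fitted lower in Kir2.1. None of the 37 passed an adjusted p of 0.05 in edgeR, where 0% of all genes did, and DESeq2 also called none of the 37. At an unadjusted p under 0.05 there were 9 of 37, all lower, against 7.22% of all genes in either direction and 4.72% lower. The fitted change was below 0 for 34 of 37 members and for 48.7% of all genes, with medians of -0.40 and 0.01. Without wild-type P4 replicate 2 the members' median was -0.15, and with no filter on low counts 6 members passed, all lower, beside 0.928% of the 36534 genes then tested (0.818% lower).

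The 4 genes with the smallest p were Syt4, Rab3a, Snap91 and Napb, all at an adjusted p of 0.677. Syt4 (ENSMUSG00000024261; chromosome 18, 31437808 to 31447406, minus strand), a synaptotagmin of dense-core and other vesicles with weak calcium binding, was at 136 and 185 CPM in wild type and 63.4, 53.2 and 100.3 CPM in Kir2.1. Its groups did not overlap, at -1.16 ± 0.33 (SE, adjusted p = 0.677) on the log2 scale, and 566 of its 3892 exon bases are shared with an antisense gene. Rab3a was at 178 and 213 CPM in wild type and 121, 109.7 and 151 CPM in Kir2.1, at -0.62 ± 0.19 (SE, adjusted p = 0.677). All 3 Kir2.1 libraries were below both wild-type libraries.

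Snap91, with the P4 levels given above, was at -0.40 ± 0.14 (SE, adjusted p = 0.677), and its highest Kir2.1 library and lowest wild-type library were at the same rounded value. Over the 17 alternative fits its change ran from -0.60 to -0.16. Napb was at 122 and 159 CPM in wild type and 92.4, 97.3 and 115 CPM in Kir2.1, without overlap, at -0.47 ± 0.17 (SE, adjusted p = 0.677). Over the same alternative fits Napb ran from -0.65 to -0.26. The ganglion cell markers summed to 1680 and 1180 CPM in wild-type P4 replicates 1 and 2 but only 849, 342 and 912 CPM in the 3 Kir2.1 libraries of that age, also without overlap. Their part in these differences was not tested. Only 2 wild-type libraries were available at this age.

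**Figure D4:**
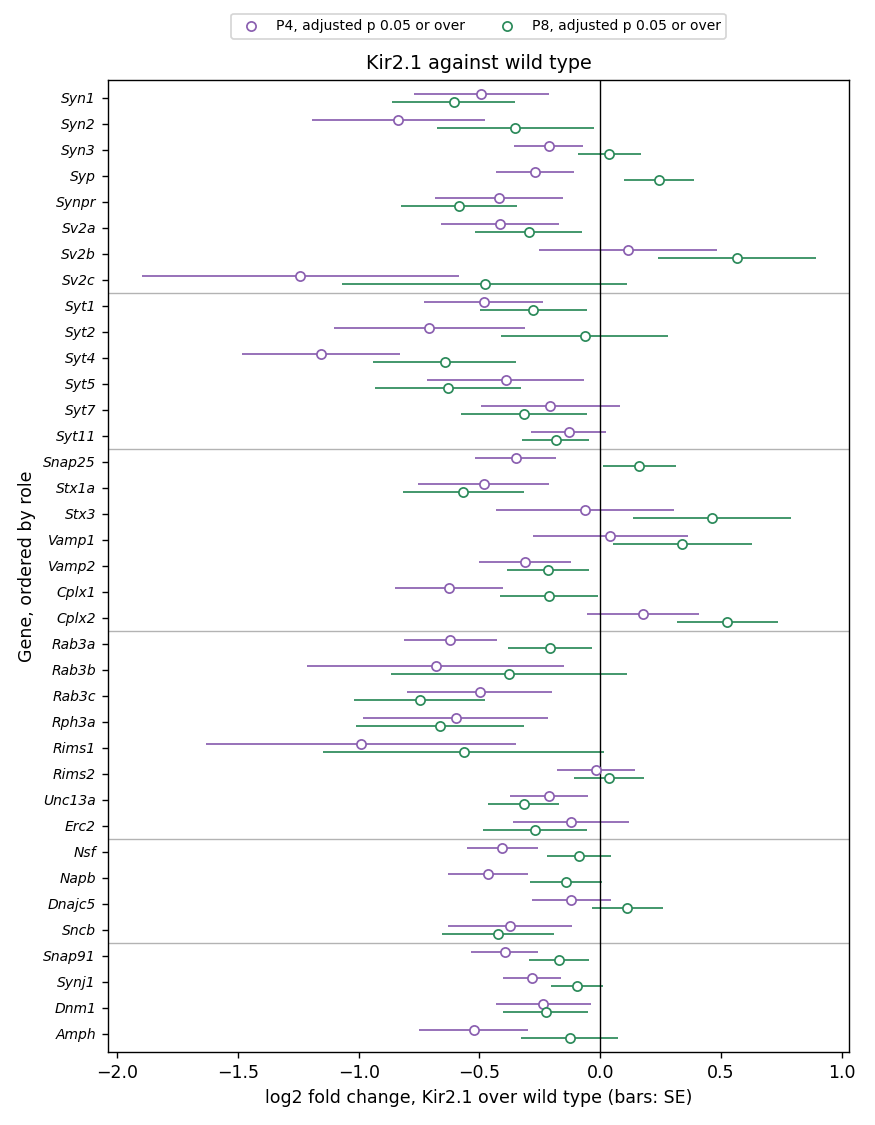
Kir2.1 over wild type, as fitted log2 fold changes, for each of the 37 genes at P4 (purple) and P8 (green), with bars of 1 SE; all points are open because none passed an adjusted p of 0.05. At P4, 34 of 37 points lie left of 0, and at P8 28 of 37 do, with Sv2b, Cplx2 and Stx3 furthest to the right.

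At P8 no member passed in edgeR or DESeq2 either, and edgeR called 0% of all genes. At an unadjusted p under 0.05 there were 6 members, 5 lower and 1 higher, against 6.82% of all genes in either direction and 3.93% lower. The fitted change was below 0 for 28 of 37 members and 49.4% of all genes, with medians of -0.22 and 0.00. The 4 smallest p belonged to Rab3c, Cplx2, Synpr and Syn1, all at an adjusted p of 0.699.

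Rab3c, a paralogue of Rab3a, was at 275, 225 and 108 CPM in wild type and 133, 93.1 and 136 CPM in Kir2.1, at -0.75 ± 0.27 (SE, adjusted p = 0.699). Synpr was at 72.6, 73.7 and 35.5 CPM in wild type and 48.0, 33.6 and 39.5 CPM in Kir2.1, at -0.58 ± 0.24 (SE, adjusted p = 0.699). Syn1 was at 198, 185 and 92.4 CPM in wild type and 116, 75.5 and 120.0 CPM in Kir2.1, at -0.61 ± 0.25 (SE, adjusted p = 0.699). In all 3 genes wild-type replicates 1 and 2 were above every Kir2.1 library and replicate 3 was among them.

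Cplx2 differed in direction. It was at 216, 329 and 408 CPM in wild type and 438, 446 and 489 CPM in Kir2.1, without overlap, at 0.53 ± 0.21 (SE, adjusted p = 0.699). Wild-type replicate 3, the library with the most rod marker RNA in its group, was again the one nearest to the Kir2.1 libraries.

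Leaving out wild-type P8 replicate 3 changed these calls. Rab3c then passed at a log2 fold change of -1.05 (adjusted p = 0.0321), Synpr at -0.86 (adjusted p = 0.0372) and Syn1 at -0.88 (adjusted p = 0.0441), and Cplx2 was at 0.75 (adjusted p = 0.0682). Those 3 were the only members called, all lower, in edgeR's test without that library, where 1.21% of all genes passed (0.677% lower). With no filter on low counts 8 members passed, 2 higher, beside 1.22% of all genes then tested. In the 3 wild-type P8 libraries rod markers summed to 921, 3720 and 8230 CPM and the 10 amacrine markers, 9 with counts in every library, to 4400, 3390 and 1810 CPM. The Kir2.1 P8 libraries had 7820, 7800 and 8010 and 2290, 1570 and 2490 CPM of the same lists, and no marker of them was at 0 throughout a group. Their part in the differences was not tested.

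The authors' deposited tables, which compare the same genotypes at each age, called more of the genes. At P4 the authors' deposited table had 6 members at an adjusted p under 0.05, all lower, where 2.27% of its 13830 genes with an adjusted p passed. These in the authors' deposited table were Sv2c at a log2 fold change of -1.20 (adjusted p = 0.0408), Rims1 at -0.98 (adjusted p = 0.0117), Amph at -0.72 (adjusted p = 0.00951), Syt1 at -0.57 (adjusted p = 0.0414), Snap25 at -0.55 (adjusted p = 0.0217) and Dnm1 at -0.52 (adjusted p = 0.031). At P8 the authors' deposited table had 11 members past that value, 9 lower and 2 higher, where 7.27% of 13396 genes passed. The 2 higher genes in the authors' deposited table were Stx3 at 0.88 (adjusted p = 4.79e-04) and Cplx2 at 0.74 (adjusted p = 0.00307). The lowest in the authors' deposited table was Rab3c at -1.06 (adjusted p = 5.76e-05), followed by Syt5, Sv2c, Syt4, Synpr, Syn1, Stx1a, Sncb and Syt7, between -0.90 and -0.60. Rab3c, Synpr and Syn1 are thus called in the authors' deposited table at P8 and in the edgeR fit without wild-type replicate 3, but not in the edgeR fit of all 11 libraries. The medians over the members in the authors' deposited tables were -0.45 at P4 and -0.33 at P8.

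Whether the Kir2.1 difference changed between P4 and P8 was tested directly, and it passed for no member, where 0% of all genes tested passed. At an unadjusted p under 0.05 there were 2 of 37, both higher, against 3.09% of all genes in either direction and 1.8% higher, and DESeq2 called none of the 37. The 4 smallest p belonged to Syp, Snap25, Nsf and Rab3a, each at an adjusted p of 1. The differences, as the P8 effect less the P4 effect on the log2 scale, were 0.52 ± 0.22 for Syp, 0.51 ± 0.23 for Snap25, 0.32 ± 0.20 for Nsf and 0.41 ± 0.26 for Rab3a (SE). Over the 17 alternative fits they ran from 0.28 to 0.72, 0.17 to 0.79, 0.03 to 0.54 and 0.17 to 0.56, in that order. For Syp the Kir2.1 effect was -0.27 at P4 and 0.24 at P8, and for Snap25 -0.35 and 0.16. Nsf had -0.41 and -0.09, and Rab3a -0.62 and -0.21. The median difference over the members was 0.23, and it was -0.01 without wild-type P4 replicate 2. The genotype, age and difference comparisons share libraries, so they are not independent of each other.

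Within groups, the release genes varied along more than one pattern. Rims1 was at 489, 432 and 73.1 CPM in wild-type P8 and 296, 86.9 and 289 CPM in Kir2.1 P8, so that replicate 3 of the first and replicate 2 of the second were far below the others. Sv2c in the same libraries was at 100.1, 100.4 and 13.6 CPM and 65.1, 26.1 and 62.0 CPM, and Rph3a at 256, 269.9 and 104 CPM and 169, 75.1 and 153 CPM. Rab3b was at 27.7, 18.2 and 5.70 CPM and 15.9, 6.58 and 17.0 CPM. The same 2 libraries were the lowest of their groups in all 4 genes. At P4, Kir2.1 replicate 2 was the lowest of its group in each, with Rims1 at 64.3, Sv2c at 12.8, Rph3a at 129.6 and Rab3b at 8.67 CPM.

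Deviations from the group mean of log2(CPM + 1) over the 11 libraries described this likeness, with depth and RNA source shared by all genes of a library. The members most like Rims1 were Syn1 (Pearson r = 0.995), Sv2c (0.977), Rph3a (0.976), Rab3b (0.967) and Rab3c (0.967). Those most like Stx3 were Cplx2 (r = 0.938), Sv2b (0.925), Vamp1 (0.915) and Syp (0.907), and Stx1a was the most opposite at -0.898. Rims1 and Stx3 themselves had r = -0.503. These are descriptions over 11 libraries, and 3 of those libraries carry much of the spread in Rims1. Most of the spread in Stx3 is in wild type, with SDs of 73.9 CPM at P4 and 165.7 CPM at P8. In Kir2.1 the Stx3 SDs were 20.7 and 23.6 CPM. The deviations of the 2 wild-type P4 libraries are equal and opposite by construction.

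Chat was at 19.1, 18.4 and 0.163 CPM in wild-type P8 and 16.7, 3.76 and 11.7 CPM in Kir2.1 P8, lowest in the same 2 libraries as Rims1. Slc18a3 in those groups was at 21.3, 23.2 and 2.03 CPM and 19.2, 2.82 and 15.2 CPM. In Kir2.1 P4 replicate 2, Chat had no count and Slc18a3 had 4 counts. In the other P4 libraries Chat was at 2.05 and 10.2 CPM in wild type and 1.67 and 1.05 CPM in Kir2.1. Slc18a3 in those libraries was at 5.22 and 11.4 CPM and 1.21 and 2.89 CPM. Apart from wild-type P4 replicate 2, every P4 library was thus below the 3.76 CPM of Chat in Kir2.1 P8 replicate 2. The summed amacrine list in Kir2.1 P4 was 3020, 3060 and 3370 CPM, with no low value in that library. The part of these cells' RNA in the spread of the release genes was not tested.

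**Figure D5:**
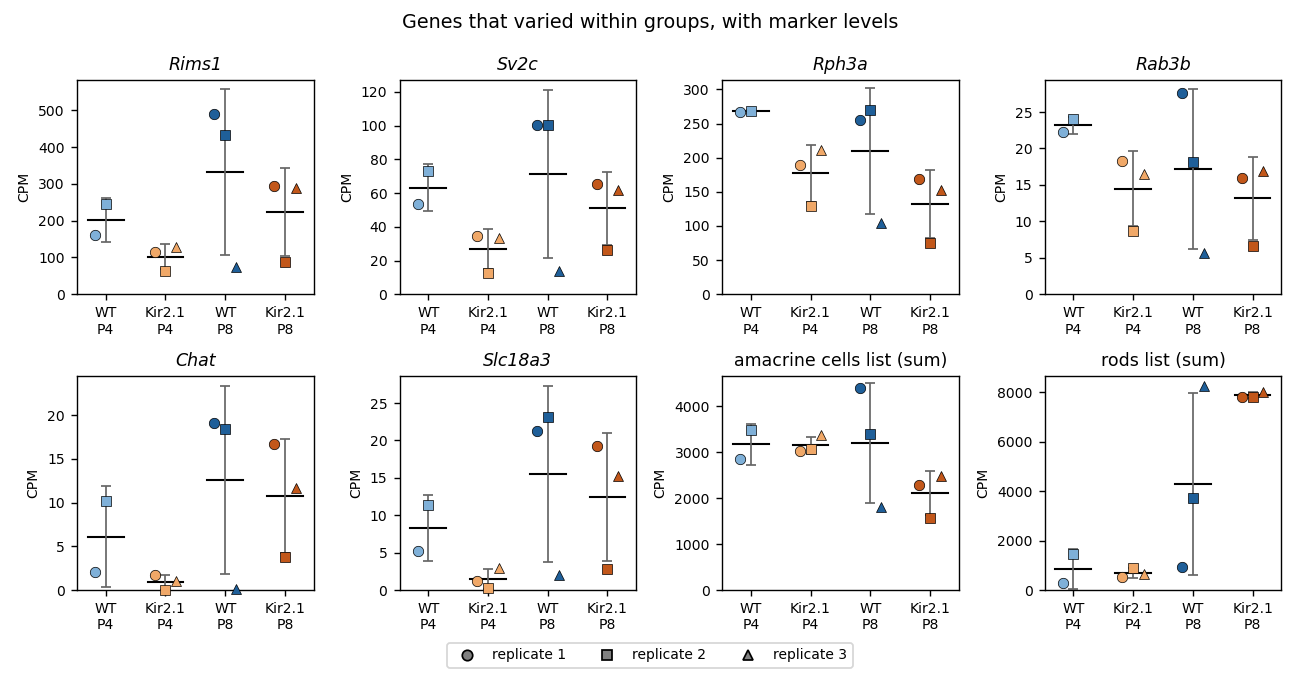
CPM by library of 4 release genes (top row) and of Chat, Slc18a3 and the summed amacrine and rod marker lists (bottom row), with group means (lines) and SD (bars; n = 2 in wild-type P4 and 3 elsewhere; axes start at 0). The triangle of wild-type P8 and the squares of Kir2.1 P4 and P8 are lowest in Rims1, Sv2c, Rph3a and Rab3b, and that triangle is highest in the rod list.

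Other genes of the release pathway were taken from a list of 77, of which 76 passed the filter (Sypl2 did not). From P4 to P8 in Kir2.1, 28 of the 76 passed, 19 higher and 9 lower, beside 16.7% of all genes, with a median over the 76 of 0.10. By role, 6 of 9 vesicle proteins passed (4 higher), 3 of 10 synaptotagmins and Doc2 proteins (1 higher), 5 of 13 SNAREs and complexins (4 higher), 6 of 20 active zone genes (3 higher), 2 of 4 recycling genes (both higher) and 6 of 20 endocytosis genes (5 higher). In wild type 4 of 76 passed, beside 4.39% of all genes. The genotype comparisons called none of the 76 in edgeR, where 0% of all genes passed. At an unadjusted p under 0.05 there were 6 of 76 at P4 and 7 at P8, all lower, beside 4.72% and 3.93% of all genes that were lower, and 2 for the difference, both higher, beside 1.8%. The fitted change was below 0 for 58 of 76 (76.3%) at P4 and 52 of 76 (68.4%) at P8, beside 48.7% and 49.4% of all genes.

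The largest rises belonged to the complexins of ribbon synapses. Cplx4 was at 2.51, 3.99 and 5.16 CPM in Kir2.1 P4 and 65.8, 61.4 and 73.3 CPM in Kir2.1 P8, at 4.09 ± 0.69 (SE, adjusted p = 0.0022). In wild type Cplx4 was at 1.45 and 10.2 CPM at P4 and 10.3, 34.5 and 71.7 CPM at P8, at 2.73 ± 0.77 (SE, adjusted p = 0.0688). Wild-type P8 replicate 1 held as little Cplx4 as the higher P4 library, as it did for Stx3 and Sv2b.

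Cplx3 was at 47.2, 59.6 and 61.1 CPM in Kir2.1 P4 and 326, 219.7 and 378 CPM in Kir2.1 P8, at 2.46 ± 0.41 (SE, adjusted p = 0.00205). Its wild-type levels were 38.1 and 152 CPM and 430.5, 232 and 317 CPM, at 1.78 ± 0.46 (SE, adjusted p = 0.0522). Cplx3, unlike Cplx4, was highest in wild-type P8 replicate 1. Unc13b (Munc13-2, the priming factor of some ribbon synapses) rose in Kir2.1 by 1.45 ± 0.31 (SE, adjusted p = 0.00738).

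Among the largest falls were those of gamma-synuclein Sncg, also a ganglion cell marker, at -2.20 ± 0.57 (SE, adjusted p = 0.0216) in Kir2.1 and of Syt6 at -1.43 ± 0.33 (SE, adjusted p = 0.0114). In wild type Sncg was at -3.42 ± 0.62 (SE, adjusted p = 0.00757), Rims3, a short RIM, at -1.01 ± 0.19 (SE, adjusted p = 0.00879) and the alpha-SNAP Napa at 0.55 ± 0.13 (SE, adjusted p = 0.038). The large active zone scaffolds Bsn (bassoon) and Pclo (piccolo) did not pass, at -0.04 ± 0.20 (SE, adjusted p = 0.939) and 0.38 ± 0.13 (SE, adjusted p = 0.0605) in Kir2.1.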

How the data were processed

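RNA of 11 mouse retina libraries was sequenced. Per the submitters' processing notes, cutadapt 1.18, SAMtools 1.9, bedtools 2.26.0, STAR 2.5.0c, HTSeq 0.6.1, DESeq2 and build mm10 were used, with no role or order given. The annotation and strand setting are not given in the sources used here. The authors deposited raw counts per gene and library. Records that name no gene (74.6% to 79.8% of all in a table) stayed out. In the authors' deposited genotype tables, per the file headers, baseMean is a normalized signal, the fold change and its SE are log2 values, the statistic is a score, and p-values are given raw and adjusted.

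CPM values are counts over the library total of filtered genes times its TMM factor. Names, positions and exon lengths came from GENCODE M21 by Ensembl ID (46488 of 47069 genes). edgeR 4.0.16 in R 4.3.3 (TMM, filterByExpr, quasi-likelihood F-test) was fitted to all 11 libraries with 4 group means, and p-values were Benjamini-Hochberg adjusted over 18188 genes; it was tested on simulated data. Errors of fitted log2 fold changes are SE derived from the test's F value, with 7 residual and 5.055 prior degrees of freedom, and others are SD. The members, lists, tests and alternatives were chosen with earlier results of these data known. Members with an adjusted p under 0.05 were named, with the 4 highest and 4 lowest folds in full; where none passed, the 4 smallest p. Paralogues, and Cplx3, Cplx4, Bsn and Pclo, were named in any case, and of other pathway genes the 3 highest and 3 lowest called; some pathway genes are not reported here. Of the members, 12 share exon bases with a gene on the opposite strand. Alternatives were DESeq2 1.42.0, its size factors, no filter, a replicate block and leaving out libraries.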

Additional observations from a re-analysis of the deposited data

How the results depend on the processing

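Of 17 alternative fits per result, none turned the direction of a called member, and the median over the members changed sign only for the difference (values below). With no filter on low counts, all-gene calls went from 0 to 339 (P4 genotype), 447 (P8 genotype) and 136 (difference) and from 798 to 2058 (age in wild type), and member calls to 6, 8, 0 and 15, with 27 for age in Kir2.1. The DESeq2 test called 21, 1 and 0 genes in those 3 genotype tests and 1337 for age in wild type, with 10 members there. Leaving out each library in turn gave 0 to 6 genes at P4 (6 without wild-type replicate 1) and 0 to 219 genes and 0 to 3 members at P8 (highest without wild-type replicate 3). It gave 0 to 1 genes for the difference. For age in wild type it gave 163 to 1339 genes and 1 to 10 members (lowest without wild-type P4 replicate 1 and highest without replicate 2; 1299 genes and 5 members without wild-type P8 replicate 1). For age in Kir2.1 it gave 1764 to 3676 genes and 9 to 21 members (1764 and 9 without P4 replicate 1, 1841 and 10 without P8 replicate 3, 2012 genes without P8 replicate 2). Without wild-type P4 replicate 1 a lone wild-type P4 library is assumed to vary like the other groups, and likewise without replicate 2. Member medians over these fits ran from -0.58 to -0.15 (P4), -0.01 to 0.38 (difference) and 0.14 to 0.52 (age in wild type), and the value without wild-type P4 replicate 2 was -0.15, -0.01 and 0.52. The cause was not tested.

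Added after seeing the data, leaving out both wild-type P4 replicate 2 and wild-type P8 replicate 3 gave 534 genes and 7 members at P8 and 1711 genes and 16 members for age in wild type. For age in Kir2.1 it gave 3831 genes and 23 members. Member medians were then -0.15 at P4, -0.06 for the difference and 0.67 for age in wild type. Leaving out Kir2.1 P4 replicate 2, wild-type P8 replicate 3 and Kir2.1 P8 replicate 2 together gave 5 members for age in wild type. With the replicate number as a replicate block, 2928 genes and 18 members were called for age in Kir2.1, 558 and 2 for age in wild type, and none otherwise. Same-numbered libraries' deviations correlated at -0.0757 to 0.139, so the numbers were not taken to pair samples. The lowest count of a member was 29 in 1 library (Syt2).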
